A study of Rattus norvegicus with 8 samples.

Results

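Smooth muscle contractile and pericyte genes were followed in adipose precursors and in adipocytes of rats on 2 diets. They were Acta2, Tagln, Myl9, Cnn1, Lmod1, Notch3, Myh11, Des, Tpm2 and Pdgfrb, taken by symbol from both tables of values. Each of the 10 symbols stood on a single row of each table, with the same gene identifier in both, among 18236 genes in the adipocyte table, 14295 in the precursor table and 14018 in both. All 10 passed the filter on low values.

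The cells came from inguinal fat of wild-type Wistar rats that had eaten a high-fat sucrose (HFS) diet or a control (C) diet for 6 months. Adipose-derived stem cells (ASC), the precursors of fat cells, were released by collagenase digestion and grown in culture. Adipocytes (AD) were made from confluent ASC with 3 days of induction by insulin (10.0 µg/mL), dexamethasone (5.0 µM) and the phosphodiesterase inhibitor IBMX (0.5 mM), then 7 days with insulin alone. The groups were AD_HFS, AD_C, ASC_HFS and ASC_C, with 2 RNA-seq libraries each, and the labels call the cell type mesenchymal stem cells in all 4. Whether 2 libraries of 1 group stem from different rats or cultures is not stated in the labels, so each p measures the spread between these libraries, which may be technical.

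Smooth muscle cells contract when myosin pulls on actin filaments that tropomyosin, calponin and related proteins organise. Transcription of many of these genes is driven by serum response factor (SRF), which binds a DNA element called the CArG box, together with the coactivators myocardin and the MRTFs. In fat tissue such genes mark the walls of arterioles and venules, pericytes share part of the programme, and cultured stromal cells can express it as stress fibres form. Pericytes, the mural cells of capillaries, are known for the receptors PDGFRB and NOTCH3, through which endothelial PDGF-B and Jagged ligands act.

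Depth differed between the tables. The AD libraries held 76083827 to 119555051 reads and the ASC libraries 992618 to 7290961. ASC_HFS replicate 2 was the shallowest, with no reads for 10.6% of the listed genes, and 3 reads there were worth 10.9 normalized counts. The AD_HFS libraries were very alike. The SD of the log2 difference between replicates was 0.0962 there, against 0.391 in AD_C, 0.387 in ASC_HFS and 0.366 in ASC_C. This SD was taken over all genes of a table on the scale of the deposited values, which is compressed for genes with few reads. The AD_HFS libraries still differed beyond read sampling and were kept as 2 libraries. Their median chi-square, over genes with at least 100 reads in the pair, was 1.60, where counting alone gives 0.455. Summed adipocyte markers, such as Adipoq and Lipe, reached 18102 to 21747 RPM (reads per 1000000 reads of the genes in both tables) in the AD libraries and 1881 to 4176 in the ASC libraries.

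The stretch around the transcription start was read for the members with a RefSeq promoter window (assembly GRCr8, 250 bases before to 50 after the start), which were 5 of the 10. Acta2, Tpm2 and Notch3 are shown since they passed the diet test in ASC. Windows run 5′ to 3′ on the gene's strand, which is the minus strand for all 3, at chr1:241172454-241172753 for Acta2, chr5:62575677-62575976 for Tpm2 and chr7:11834536-11834835 for Notch3. Capitals mark CArG-like matches in Acta2 and matches to the GC box GGGCGG, on either strand, in Tpm2 and Notch3.
Acta2: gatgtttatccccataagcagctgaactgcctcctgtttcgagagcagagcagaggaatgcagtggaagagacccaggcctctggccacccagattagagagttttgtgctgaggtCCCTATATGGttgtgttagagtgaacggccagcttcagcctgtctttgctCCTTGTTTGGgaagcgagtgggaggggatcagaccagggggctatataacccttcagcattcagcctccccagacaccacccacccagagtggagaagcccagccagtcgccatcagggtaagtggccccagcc
Tpm2: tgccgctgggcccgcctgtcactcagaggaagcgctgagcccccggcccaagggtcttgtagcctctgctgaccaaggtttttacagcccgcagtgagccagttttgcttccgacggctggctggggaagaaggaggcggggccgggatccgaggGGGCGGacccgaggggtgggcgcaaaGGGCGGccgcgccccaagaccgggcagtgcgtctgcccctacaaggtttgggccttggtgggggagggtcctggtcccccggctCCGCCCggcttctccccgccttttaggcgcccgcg
Notch3: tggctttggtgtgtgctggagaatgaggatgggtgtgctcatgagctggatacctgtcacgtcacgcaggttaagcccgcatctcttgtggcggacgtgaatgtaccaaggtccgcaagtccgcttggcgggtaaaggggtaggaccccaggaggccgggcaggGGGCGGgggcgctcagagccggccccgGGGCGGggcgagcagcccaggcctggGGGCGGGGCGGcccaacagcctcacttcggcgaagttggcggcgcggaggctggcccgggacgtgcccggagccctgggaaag
The CArG consensus has 6 A or T bases between CC and GG and reads the same on both strands. No exact match stood in any of the 5 windows, and 1.64% of 33469 windows of this length held one. With at least 5 of the 6 central bases A or T, Acta2 held 2 matches, CCCTATATGG starting 134 bases and CCTTGTTTGG starting 84 bases before the start, and 9.42% of windows held at least 1 such match. The windows of Tpm2, Notch3, Cnn1 and Des held none. Notch3 held 4 GC boxes, of which 2 overlap, Tpm2 and Des held 3 each, and Acta2 and Cnn1 held 0, beside 33.1% of all windows with at least 1. These matches describe the letters in the windows and show no binding.

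In ASC, 3 contractile genes fell with the HFS diet and 1 pericyte receptor rose. Acta2, Tagln and Tpm2 were 2.94-fold, 3.14-fold and 2.77-fold lower in ASC_HFS than in ASC_C, and Notch3 was 2.48-fold higher. Values are normalized counts (reads scaled within a table), and each log2 difference is on the scale of log2(deposited value + 1), which is compressed for genes with few reads. The test was limma-trend over all genes of the table, with Benjamini-Hochberg adjusted p under 0.05 as the call. The 4 of 10 members called stood beside 19.1% of all genes called, 9.41% higher and 9.7% lower. The members and the lists below were chosen with earlier results of these data known. Shares set beside theirs are therefore descriptions and no test of the set. The median log2 difference of the 10 was -0.50, against -0.04 over all genes.

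**Figure D1:**
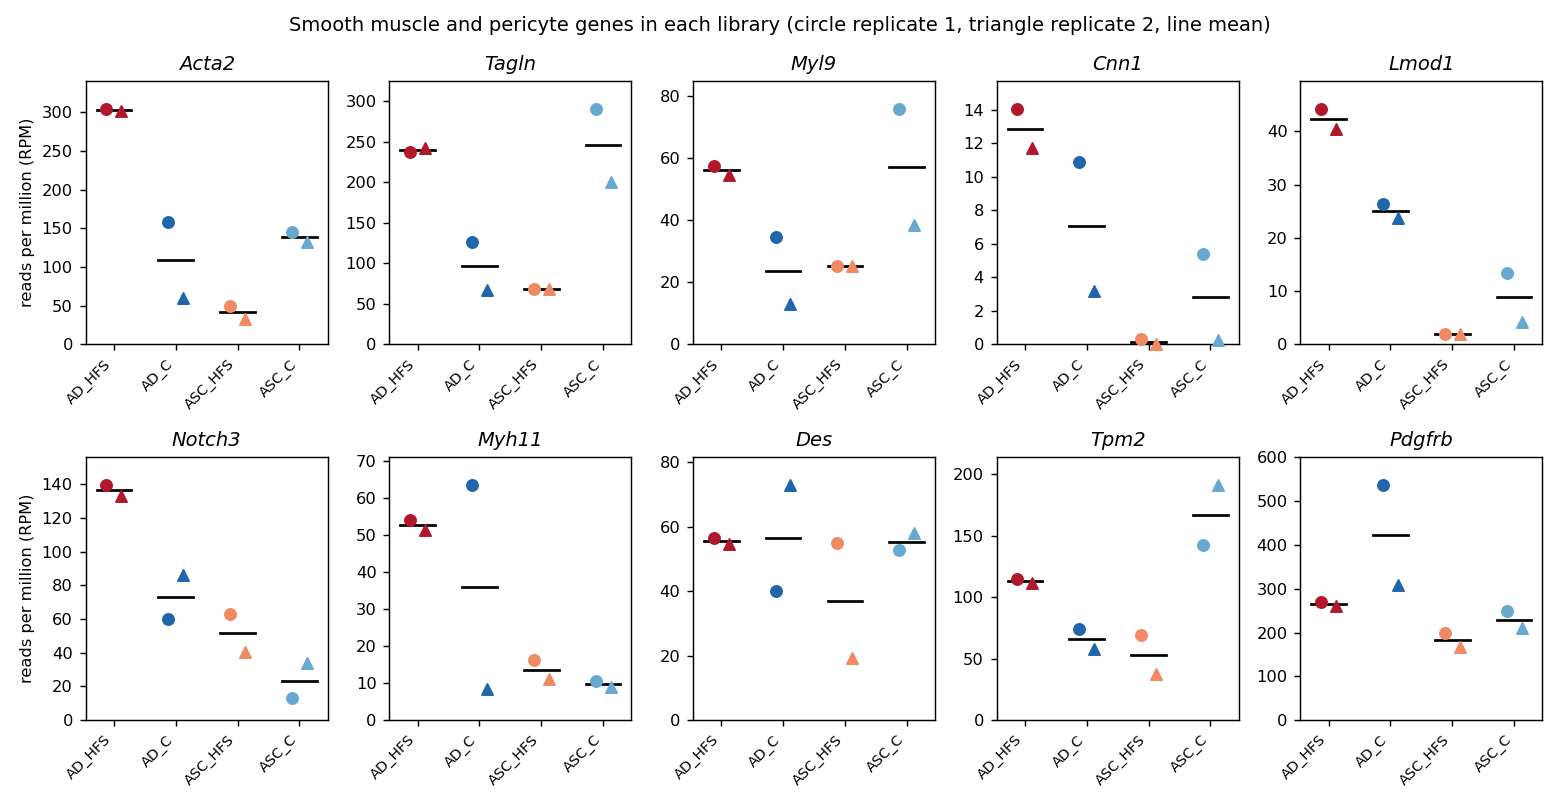
Each panel shows 1 gene, with RPM on the vertical axis (starting at 0) and the groups AD_HFS, AD_C, ASC_HFS and ASC_C from left to right; points are libraries and lines are group means. Acta2 stands near 303 RPM in AD_HFS, while in ASC_HFS it lies near 41.3, below both ASC_C libraries.

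Among the thin filament genes, Acta2 encodes smooth muscle alpha-actin, the actin of the contractile filament. It had 180.2 and 119.7 normalized counts in the ASC_HFS libraries, against 449.3 and 433.1 in the ASC_C libraries. Both HFS libraries lay far below both C libraries, with no overlap. The log2 difference was -1.26 (SE 0.25, adjusted p = 0.0043, limma). Tagln encodes transgelin (SM22), a calponin-family protein that binds actin. It stood at 248.2 and 246.6 in ASC_HFS and at 896.7 and 655.9 in ASC_C. The HFS libraries were almost level with each other and below both C libraries. Its log2 difference was -1.41 (SE 0.26, adjusted p = 0.0031, limma). Tpm2 encodes beta-tropomyosin, which lies along the actin filament. It had 251.3 and 134.2 in ASC_HFS, against 440.9 and 625.4 in ASC_C. Again no HFS library reached a C library, although each pair was spread widely. The log2 difference was -1.24 (SE 0.29, adjusted p = 0.0099, limma).

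Notch3, a Notch receptor of mural cells, moved the other way in ASC. It had 228.9 and 145.1 normalized counts in ASC_HFS and 39.8 and 110.7 in ASC_C. Both HFS libraries were above both C libraries. Its log2 difference was 0.93 (SE 0.29, adjusted p = 0.0382, limma). The call was lost with quantile normalization (adjusted p = 0.0533) and on log2 normalized counts (adjusted p = 0.0618).

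The other members did not pass in ASC. Myl9, the regulatory light chain of smooth muscle myosin, had 92.3 and 90.7 normalized counts in ASC_HFS, against 234.4 and 125.5 in ASC_C, a log2 difference of -0.63 (adjusted p = 0.102, limma). Its groups did not overlap. Lmod1, leiomodin, which nucleates actin filaments, had 12 and 2 reads in ASC_HFS and 45 and 31 in ASC_C (log2 difference -0.54, adjusted p = 0.135, limma). Cnn1, calponin, which restrains actomyosin, had 2 and 0 reads in ASC_HFS and 18 and 2 in ASC_C (log2 difference -0.46, adjusted p = 0.244, limma). The ASC_C pair of Cnn1 was spread widely, and limma-voom without ASC_C replicate 2 called it lower. Myh11, the smooth muscle myosin heavy chain, had 59.2 and 39.9 normalized counts in ASC_HFS and 32.4 and 29.1 in ASC_C, a log2 difference of 0.31 (adjusted p = 0.342, limma). The HFS libraries lay above the C libraries, so the myosin heavy chain did not go with the actin-binding genes in sign. Des, the intermediate filament protein desmin, had 200.8 and 68.9 in ASC_HFS and 163.0 and 190.1 in ASC_C, overlapping (log2 difference -0.38, adjusted p = 0.414, limma). Pdgfrb, the PDGF-B receptor of pericytes and many fibroblasts, had 728.3 and 602.0 in ASC_HFS and 773.5 and 684.1 in ASC_C, also overlapping. Its log2 difference was -0.12, with a 95% interval from -0.71 to 0.46.

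Across the 10 members, both ASC_HFS libraries lay below both ASC_C libraries for 5 genes (32.5% of all genes did so) and above for 2 (28.5% of all genes). Leaving out any 1 of the 4 ASC libraries left 0 members and 0 genes called by limma-trend. With limma-voom on the recovered reads the count was 4 with all libraries. The share of all genes called in that fit is not given here. With 1 library left out, limma-trend log2 differences ran from -1.47 to -1.05 for Acta2 and from -1.62 to -1.21 for Tagln. They ran from -1.58 to -0.90 for Tpm2 and from 0.51 to 1.35 for Notch3. In limma-voom fits without 1 library, chosen after seeing the data, Acta2 and Tagln kept their calls. Tpm2 lost its call without ASC_HFS replicate 2, and Notch3 lost its call without ASC_C replicate 1 or ASC_HFS replicate 1. Those fits leave 1 library in a group. In bulk RNA, fewer cells of a type and less RNA per cell cannot be told apart.

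In AD, no member passed the test of HFS against C. Most values were higher in AD_HFS. The log2 difference was positive for 9 of 10, with a median of 0.90, against -0.01 over all genes. Des was among the 9 with 0.05, though its mean was slightly lower in AD_HFS (5385 against 5425 normalized counts). Both HFS libraries stood above both C libraries for 7 members (24.2% of all genes did so) and below for 1 (23.5%). By limma-trend 0 of 10 were called, beside 1.34% of all genes (1.31% higher and 0.0329% lower). At an unadjusted p under 0.05 there were 6 members, beside 13.9% of all genes, and limma-voom also called 0.

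Acta2 had 29567 and 29196 normalized counts in the AD_HFS libraries, against 15207 and 5801 in the AD_C libraries. The HFS pair was almost level, whereas AD_C replicate 2 was far below replicate 1. The means, 29381 ± 262 and 10504 ± 6652 (SD, n = 2 each), gave a ratio of 2.80 and a log2 difference of 1.62 (SE 0.45, adjusted p = 0.223, limma). Tagln repeated this layout, with 23062 and 23422 in AD_HFS and 12202 and 6417 in AD_C. Its log2 difference was 1.37 (SE 0.31, adjusted p = 0.151, limma). Myl9 had 5582 and 5303 in AD_HFS and 3326 and 1252 in AD_C. The log2 difference of this light chain was 1.32 (SE 0.42, adjusted p = 0.281, limma). Tpm2 had 11142 and 10838 in AD_HFS and 7145 and 5526 in AD_C. The C libraries were closer together for Tpm2 than for the 3 genes before it, and the log2 difference was 0.79 (SE 0.14, adjusted p = 0.101, limma).

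Lmod1 came nearest to the threshold in AD. It had 4294 and 3919 normalized counts in AD_HFS, against 2539 and 2274 in AD_C. All 4 values were well separated by diet, with a log2 difference of 0.72 (SE 0.11, adjusted p = 0.0677, limma). Cnn1 had 1364 and 1137 in AD_HFS and 1046 and 308 in AD_C. The groups did not overlap, but the C pair was spread so widely that the 95% interval of the log2 difference ran from -0.29 to 2.05. Notch3 had 13566 and 12896 in AD_HFS and 5786 and 8264 in AD_C. Here AD_C replicate 2 was the higher of its pair, unlike in the contractile genes above, and the log2 difference was 0.91 (SE 0.18, adjusted p = 0.123, limma).

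The remaining 3 members showed other layouts in AD. Myh11 had 5264 and 4979 in AD_HFS, against 6118 and 796 in AD_C. The C libraries lay on both sides of the HFS pair, and the 95% interval of the log2 difference ran from -1.18 to 3.34. Des had 5483 and 5287 in AD_HFS and 3841 and 7008 in AD_C, again with the C libraries on both sides. Pdgfrb was the member with a negative log2 difference, at 26225 and 25248 in AD_HFS, against 51654 and 29570 in AD_C. It did not overlap, and its log2 difference was -0.60 (adjusted p = 0.435, limma).

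The AD result depended on the spread of the C pair. Leaving out either AD_C library left the tight HFS pair as the measure of spread, and all 10 members were then called, Des and Myh11 with a sign that depended on which library was left out. In those fits 39.0% of all genes were called without AD_C replicate 1 and 53.9% without AD_C replicate 2. Without either AD_HFS library, or with that pair averaged and counted as 1 library, the calls of the whole table were lost. Those fits leave 1 library in the AD_HFS group and say nothing about the members in particular.

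The difference between the 2 diet effects was tested directly, in 1 limma-trend fit of all 8 libraries over the 14018 shared genes. Of the 10 members 5 were called, all with a higher diet difference in AD than in ASC, beside 12.5% of all genes (7.53% higher and 4.93% lower). The median over members was 1.30, against 0.07 over all genes. At an unadjusted p under 0.05 there were 6, beside 30.2% of all genes. The deposited values have a different compression in each table, which bears on the size of these differences.

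Acta2 differed by 2.88 on the log2 scale (SE 0.51, adjusted p = 0.0097, limma). Tagln differed by 2.78 (SE 0.39, adjusted p = 0.0045, limma). In both genes the AD_HFS libraries were above AD_C while the ASC_HFS libraries were below ASC_C. Tpm2 differed by 2.03 (SE 0.36, adjusted p = 0.0097, limma), Myl9 by 1.95 (SE 0.51, adjusted p = 0.0363, limma) and Lmod1 by 1.26 (SE 0.29, adjusted p = 0.0259, limma). Cnn1 had 1.34 (SE 0.54, adjusted p = 0.132, limma). Notch3 had -0.02 with a 95% interval from -0.93 to 0.90, so its diet effect was not shown to differ between AD and ASC. Myh11 had 0.77, Des 0.42 and Pdgfrb -0.48, none of them called. With limma-voom 3 of the 5 calls held, namely Acta2, Tpm2 and Tagln. The shares of all genes called in that fit and in the fits below are not given here. These counts therefore have no like share beside them. In limma-trend fits without 1 library the count ran from 2 to 7, and Tpm2 and Tagln were the 2 called without ASC_C replicate 1 and without ASC_HFS replicate 2. With limma-voom and 1 library left out it ran from 0 to 5, and it was 0 without either ASC_HFS library.

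**Figure D2:**
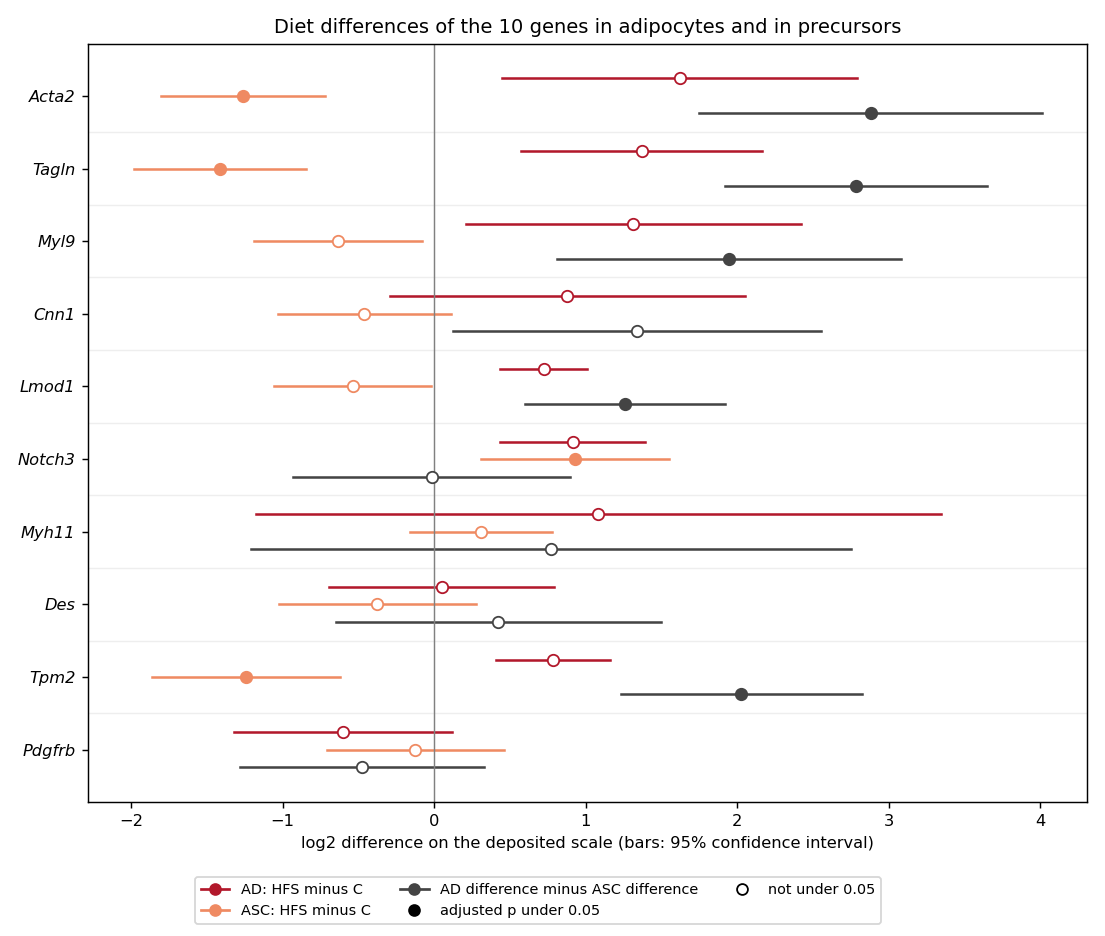
For each gene the log2 difference on the deposited scale is drawn with its 95% confidence interval, for AD (HFS minus C) above, ASC (HFS minus C) in the middle and the AD difference minus the ASC difference below; filled points have an adjusted p under 0.05. Acta2 lies at 1.62 in AD and at -1.26 in ASC, while Notch3 lies at 0.91 in AD and 0.93 in ASC.

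The change with differentiation was described in RPM, recomputed from the recovered reads over the shared genes because the tables were normalized separately. No test was made, since stage and table coincide and depth differed. On the HFS diet, both AD libraries lay above both ASC libraries for 9 of 10 members, while 47.9% of all genes did so, and below for 0 (32.8% of all genes). The median log2 ratio of AD over ASC was 1.61 for the members and 0.20 over all genes. On the C diet the members split, with 3 above (31.4% of all genes) and 3 below (38.9% of all genes), a median of 0.45 and -0.15 over all genes.

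Acta2 had 304.1 and 301.3 RPM in AD_HFS and 49.4 and 33.3 in ASC_HFS, a ratio of 7.32. On the C diet it had 158.1 and 60.4 in AD_C and 145.3 and 132.5 in ASC_C. The AD_C libraries stood on both sides of the ASC_C pair, so the separation by stage was seen in HFS cells and not in C cells. Tagln had 237.2 and 241.7 in AD_HFS and 68.1 and 68.5 in ASC_HFS, a ratio of 3.51. In C cells it had 126.9 and 66.8 in AD_C, against 289.9 and 200.7 in ASC_C, a ratio of 0.395. The stage order of Tagln was thus opposite on the 2 diets. Tpm2 had 114.6 and 111.8 in AD_HFS and 68.9 and 37.3 in ASC_HFS. In C cells Tpm2 had 74.3 and 57.6 in AD_C and 142.6 and 191.4 in ASC_C. Myl9 had 57.4 and 54.7 in AD_HFS and 25.3 and 25.2 in ASC_HFS, against 34.6 and 13.0 in AD_C and 75.8 and 38.4 in ASC_C. Both followed Tagln, with ratios of 2.13 and 2.22 on the HFS diet and of 0.395 and 0.417 on the C diet.

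The receptors were higher in AD than in ASC on both diets. Notch3 had 139.5 and 133.1 RPM in AD_HFS and 62.8 and 40.3 in ASC_HFS, a ratio of 2.64. In C cells it had 60.2 and 86.1 in AD_C and 12.9 and 33.9 in ASC_C, a ratio of 3.13. No stage overlapped within a diet, but AD_C replicate 1 lay below the higher ASC_HFS library. Pdgfrb had ratios of 1.44 on the HFS diet and 1.84 on the C diet. Lmod1 had 44.2 and 40.4 in AD_HFS against 2.05 and 2.02 in ASC_HFS, and 26.4 and 23.7 in AD_C against 13.5 and 4.25 in ASC_C. Its HFS ratio of 20.8 rests on 12 and 2 reads in ASC_HFS. Lmod1 and Pdgfrb were the 2 members with all 4 AD libraries above all 4 ASC libraries, as 22.4% of all genes were, and no member had all 4 below (19.1% of all genes). Cnn1 had 14.0 and 11.7 in AD_HFS, against 2 and 0 reads in ASC_HFS, too few for a fold. Myh11 had 54.1 and 51.4 in AD_HFS and 16.2 and 11.1 in ASC_HFS, whereas in C cells AD_C had 63.6 and 8.30 and ASC_C 10.5 and 8.92. AD_C replicate 2 thus lay below every precursor library. Des overlapped between stages on both diets.

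Ordered by mean RPM, Acta2 ran from AD_HFS (303 ± 1.99) through ASC_C (139 ± 8.99) and AD_C (109 ± 69.1) to ASC_HFS (41.3 ± 11.4; SD, n = 2 each). AD_C and ASC_C did not differ beyond their spread. Tagln had ASC_C (245 ± 63.1) and AD_HFS (239 ± 3.18) on top, within their spread, then AD_C (96.9 ± 42.4) and ASC_HFS (68.3 ± 0.342), which were also within theirs. Notch3 was ordered AD_HFS (136 ± 4.56), AD_C (73.1 ± 18.3), ASC_HFS (51.5 ± 15.9) and ASC_C (23.4 ± 14.9), and AD_C and ASC_HFS overlapped.

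Other genes of the same pathways were counted in 5 lists. In ASC, 7 of 22 further smooth muscle contractile genes were called, 6 lower and 1 higher, with a list median of -0.34, beside 19.1% of all genes called in ASC. Cald1, caldesmon, which blocks myosin on the thin filament, fell to 609 ± 76.8 normalized counts in ASC_HFS, against 2232 ± 532 in ASC_C (SD, n = 2 each), a log2 difference of -1.75 (adjusted p = 0.0018, limma). Cnn2, a calponin found outside muscle as well, and Tpm1, alpha-tropomyosin, fell by 1.14 and 1.09 on the log2 scale (adjusted p = 0.0163 and 0.0175, limma). Sncg, a synuclein, rose by 1.06 (adjusted p = 0.0295, limma), and it is also abundant in fat cells. Smtn, Ppp1r14a and Itga8 were the other 3 lower genes, and Itga8 had 5 and 0 reads in ASC_HFS. Without any 1 ASC library, limma-trend called 0 genes of each of the 5 lists in ASC, and limma-voom called 2 to 9 contractile genes (7 with all libraries), with 2 when either ASC_HFS library was left out. The difference between the AD and ASC diet effects was called for 6 of 22, beside 12.5% of all genes, and all 6 were higher: Itga8, Cald1, Tpm1, Cnn2, Smtn and Csrp1. That count was 1 without either AD_HFS library or without ASC_HFS replicate 2, 2 without ASC_C replicate 1 and 9 without ASC_HFS replicate 1. It was 3 with limma-voom, and 0 with limma-voom and any 1 of the 4 HFS libraries left out.

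Of 12 genes of SRF and myocardin control, 2 were called in ASC, a share near the 19.1% of all genes. Klf4, which in mouse smooth muscle represses the contractile programme, rose to 1181 ± 110 normalized counts in ASC_HFS, against 619 ± 6.85 in ASC_C (log2 difference 0.86, adjusted p = 0.0433, limma). The Klf4 call was lost with upper-quartile scaling (adjusted p = 0.0525), quantile normalization (0.0812) and the replicate block (0.0616). Smarcd3, a subunit of SWI/SNF chromatin remodelling complexes, fell by 0.96 (adjusted p = 0.0145, limma). Both calls were lost in limma-voom without either ASC_HFS library. Srf itself did not pass in either table. Myocd, myocardin, was listed in the AD table alone, at 176 ± 0.686 in AD_HFS and 86.5 ± 63.8 in AD_C (log2 difference 0.54, adjusted p = 0.412, limma), and was not analysed here in ASC.

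Pericyte and mural genes split in ASC, with 5 higher and 4 lower of 19, beside 9.41% of all genes higher and 9.7% lower. Rgs5 and Abcc9, classical pericyte markers, rose by 0.95 and 1.10 on the log2 scale (adjusted p = 0.0080 and 0.0067, limma), and Steap4 rose by 1.56. Vtn and Foxc2 were the other 2 higher genes, and Foxc2 had 19 and 4 reads in ASC_HFS and 0 and 2 in ASC_C. Ndufa4l2 and Cox4i2, mitochondrial genes enriched in pericytes and induced by low oxygen, fell by 2.54 and 2.25. Angpt1, the mural ligand of the endothelial receptor TIE2, fell to 23.8 ± 13.1 normalized counts in ASC_HFS, against 300 ± 4.04 in ASC_C. Anpep, aminopeptidase N, was the fourth lower gene. The higher and lower genes left a list median of 0.28.

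The Notch3 and PDGFRB signalling list leaned higher in ASC, with 8 higher and 1 lower of 17 and a median of 0.76, against the same 9.41% and 9.7% of all genes. Jag1, a Notch ligand, had 419 ± 146 normalized counts in ASC_HFS and 77.4 ± 28.2 in ASC_C (log2 difference 1.79, adjusted p = 0.000772, limma). Pdgfb, the ligand of PDGFRB, had 316 ± 97.2 in ASC_HFS and 43.5 ± 3.83 in ASC_C (log2 difference 1.89, adjusted p = 0.000279, limma). Notch1 rose by 1.37, and Pdgfra, the alpha receptor of fibroblasts and fat progenitors, fell by 1.74 (adjusted p = 0.0016, limma). Jag1, Pdgfb, Notch1 and Notch2 had a lower diet difference in AD than in ASC, 4 of the 16 genes in both tables, beside 4.93% of all genes. Of these, Jag1 alone was called without ASC_C replicate 1, ASC_HFS replicate 2 or either AD_HFS library and with the AD_HFS pair averaged, and none was called in limma-voom with any 1 of the 4 HFS libraries left out. Pdgfb was -0.46 on log2 normalized counts (adjusted p = 0.722, limma) and -0.26 with limma-voom (adjusted p = 0.828). Endothelial markers moved with these ligands in ASC, with 8 of 9 higher and a summed level of 1240 and 1253 RPM in ASC_HFS, against 267 and 543 in ASC_C. Their part in the ligand result was not tested.

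The myofibroblast and TGF-beta list had 6 higher and 2 lower of 18 in ASC, with a median of 0.58, against 9.41% and 9.7% of all genes. Postn, periostin, a matrix protein, had 5988 ± 937 in ASC_HFS and 1362 ± 280 in ASC_C (log2 difference 2.09). Tnc, tenascin C, had 189 ± 118 in ASC_HFS and 1765 ± 387 in ASC_C (log2 difference -2.92). Smad7 and Smad3, the inhibitory and the activating Smad of the TGF-beta pathway, rose by 1.25 and 1.24. Acta2, the usual mark of a myofibroblast, thus moved like Tnc and against Postn. In AD, limma-trend and limma-voom called 0 genes of each of the 5 lists, and limma-trend had 28 of 89 at an unadjusted p under 0.05, beside 13.9% of all genes. Leaving out 1 AD_C library raised the limma-trend counts of the lists and of the whole table. Leaving out 1 AD_HFS library lost the calls of the whole table.

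**Figure D3:**
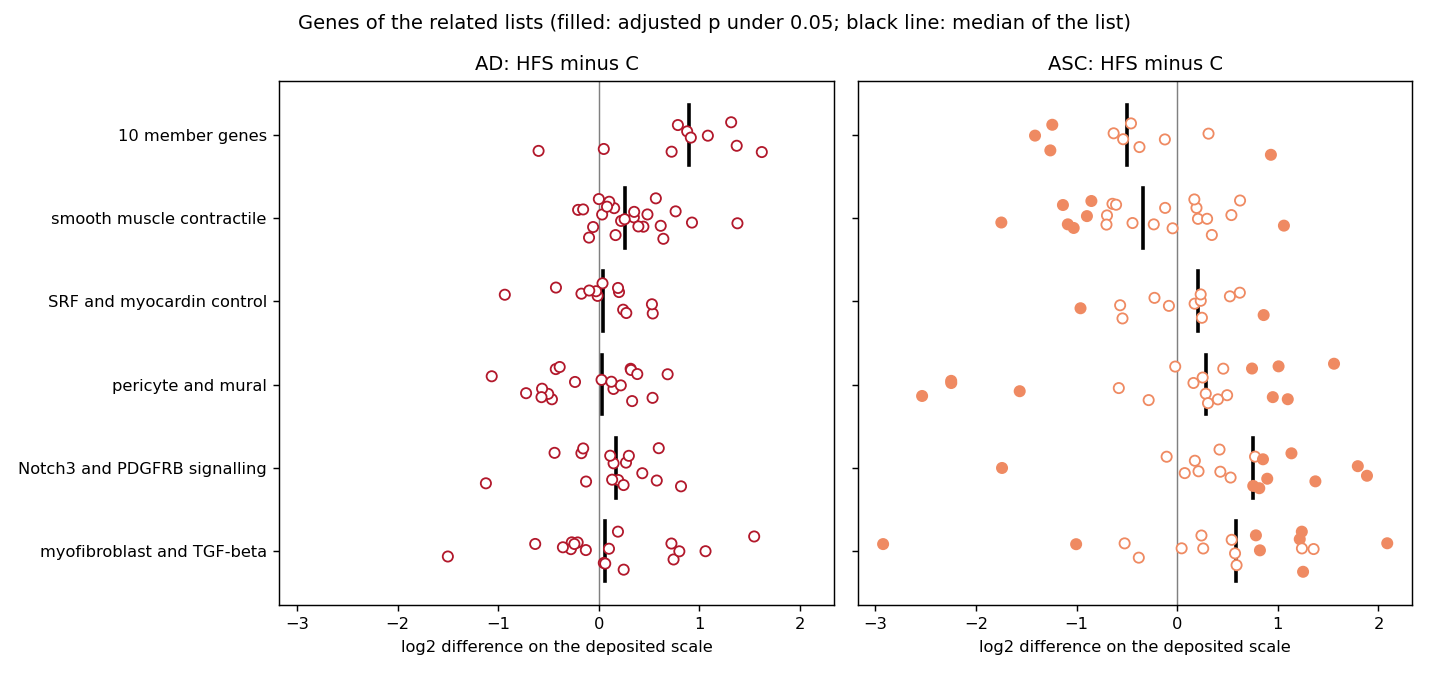
Each point is the log2 difference (HFS minus C, deposited scale) of 1 gene, in AD on the left and ASC on the right, with the 10 member genes on top; filled points have an adjusted p under 0.05 and black lines are list medians. The members' median lies at 0.90 in AD and at -0.50 in ASC, while the Notch3 and PDGFRB signalling list has a median of 0.76 in ASC.

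Markers of other cells were read beside the members. The macrophage and myeloid list was higher with HFS in both tables, with 8 of 12 called in AD (1.34% of all genes were) and 9 of 12 in ASC (19.1% of all genes). Its sum was 2665 and 2652 RPM in AD_HFS and 332 and 503 in AD_C, and 2525 and 2765 in ASC_HFS and 823 and 797 in ASC_C. It thus moved with the contractile values in AD and against them in ASC. Endothelial markers summed to 38.5 and 36.01 in AD_HFS and 17.4 and 13.0 in AD_C, with 1 of 9 called. The epithelial list, with keratins shared by mammary myoepithelium, which also expresses Acta2, summed to 264 and 269 in ASC_HFS and 48.5 and 68.5 in ASC_C, with 6 of 9 higher. These markers were high where Acta2 was low, and in AD they summed to between 7.06 and 9.73 in every library. Of 6 skeletal and cardiac muscle genes measured in ASC and 7 in AD 0 were called (limma-trend; 0 and 2 at an unadjusted p under 0.05), and their sum was at most 14.4 RPM in any library. Acta1, Myh1 and Tnnc2 were at 0 reads in ASC_HFS replicate 2. The mesenchymal progenitor list had 4 higher and 4 lower of 10 in ASC and 0 of 10 called in AD, where 6 had an unadjusted p under 0.05. The adipocyte list had 4 of 10 higher in ASC and 0 called in AD, where 2 had an unadjusted p under 0.05. The part of these other cells in the members' differences was not tested.

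**Figure D4:**
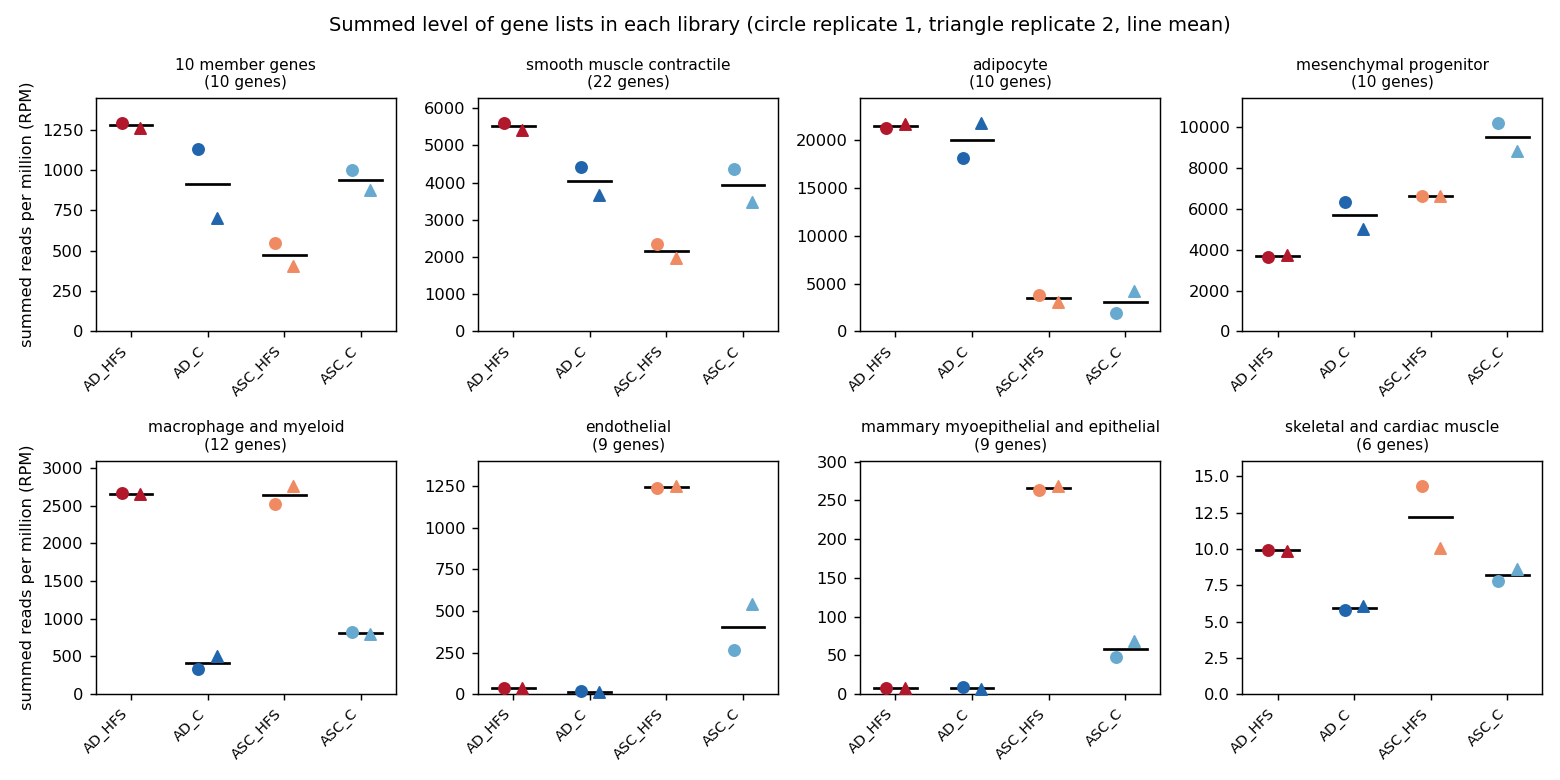
Summed RPM (vertical axes start at 0) of 8 gene lists in each library, with AD_HFS, AD_C, ASC_HFS and ASC_C from left to right; points are libraries and lines are group means. The smooth muscle contractile sum is lowest in ASC_HFS, while the macrophage and myeloid sum is at least 2525 in all 4 HFS libraries and at most 823 in the C libraries.

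The members were compared with Acta2 over the 8 libraries as log2(RPM + 1). Tagln had a Pearson r of 0.876, Cnn1 0.820, Lmod1 0.784, Myl9 0.748, Tpm2 0.720 and Myh11 0.685. Pdgfrb (0.438), Des (0.434) and Notch3 (0.311) were less like it. Among 7818 genes with at least 10 RPM on average in each table, the 5 non-members most like Acta2 were Npc2 (0.946), Gja5 (0.936), Eef2k (0.931), a gene without a symbol (0.931) and Flna (0.926). Gja5, connexin 40, a gap junction protein of arterial endothelium, had 273 and 280 RPM in AD_HFS, 68.6 and 47.2 in AD_C, 3.08 and 3.02 in ASC_HFS and 80.3 and 67.1 in ASC_C. Its lowest and highest groups were those of Acta2. The 8 points fall into 2 tables of different depth and into 4 pairs, so these r values only describe the order of the libraries.

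Acta2 has near-identical paralogs, Actg2 and Acta1, and how reads shared between them were counted is not given in the sources used here. Actg2 had 629 ± 10.4 normalized counts in AD_HFS and 331 ± 363 in AD_C, and 6.69 ± 5.93 in ASC_HFS and 20.7 ± 15.3 in ASC_C (SD, n = 2 each).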

How the data were processed

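RNA of 8 libraries was sequenced with 50 bp paired-end reads, per the labels, which name the molecule polyA RNA but list a kit for rRNA removal. Per the submitters' processing notes, FastQC, STAR, featureCounts and DESeq2 were used with the builds mRatBN7.2 and rn7; versions and settings are not given in the sources used here. The authors deposited 1 table for AD and 1 for ASC, whose values are a signal: base-2 antilogs of variance-stabilized, size-factor scaled gene counts. Inverting that transformation gave whole reads for 100% of values (tolerance 1e-06), and from them normalized counts and RPM (reads per 1000000 reads). A floor is 3 reads per library, and depth covers counting error only.

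Limma-trend (limma 3.58.1, R 4.3.3) was run on log2(value + 1) with a mean value of at least 10, which removed no gene, two-sided, with Benjamini-Hochberg adjustment over all genes. The alternatives were other pseudocounts, filters, scalings and spreads, limma-voom, a replicate block and leaving out each library. Tables and figures used Python 3.11.15, pandas 2.3.3 and matplotlib 3.10.9. Named were the 10 members, up to 4 called genes per list by size, the 5 genes most like Acta2, and list genes that complete a small count, the last chosen after their values were seen, as were Notch2, Srf, Myocd, Actg2 and Acta1. The members and the 5 pathway and 6 marker lists were chosen with earlier results of these data known. Of the list genes, 14 were not listed in either table and were not analysed here.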

Additional observations from a re-analysis of the deposited data

Results flagged for a closer look

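The diet difference (HFS minus C) differed between AD and ASC, by limma's test of that difference with adjusted p under 0.05, for 5 of the 10 members. Their log2 differences, AD minus ASC, were 2.88 for Acta2, 2.78 for Tagln, 2.03 for Tpm2, 1.95 for Myl9 and 1.26 for Lmod1. Among the further contractile genes named above it was 2.41 for Itga8, 1.97 for Cald1, 1.57 for Tpm1 and 1.24 for Cnn2. The calls of Itga8 (adjusted p = 0.141) and Cnn2 (adjusted p = 0.068) were lost with limma-voom. Itga8 also had very few reads in ASC_HFS, as given above. Klf4 went the other way, with -1.79; its call was lost without ASC_HFS replicate 2 (adjusted p = 0.0544, limma). Of the pericyte and mural genes, Angpt1 had 1.86, Cox4i2 1.52 and Ndufa4l2 1.47, while Steap4 had -2.13. The Steap4 call was lost with limma-voom (adjusted p = 0.0541). In Notch3 and PDGFRB signalling the values were -1.95 for Jag1, -1.31 for Pdgfb, -1.18 for Notch1 and -0.95 for Notch2. In the myofibroblast and TGF-beta list Tnc had 3.98, Postn -3.59, Smad3 -1.52 and Smad7 -1.46.

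Many of these calls rested on single libraries. Of the 5 pericyte and mural genes called, 2 (Angpt1, Cox4i2) were called without ASC_C replicate 1, without ASC_HFS replicate 2, without either AD_HFS library and with the AD_HFS pair averaged, against 3 genes of that list without AD_C replicate 1 and 8 without AD_C replicate 2. Of the 4 genes of Notch3 and PDGFRB signalling, 1 (Jag1) was called in the first 5 of these fits, and Pdgfb was also lost with limma-voom. The 5 calls in the myofibroblast and TGF-beta list became 2 without ASC_C replicate 1, ASC_HFS replicate 2 or AD_HFS replicate 1, and 3 without AD_HFS replicate 2. With limma-voom and either ASC_HFS library left out, 0 genes were called in each of the 5 lists. In the main limma-trend fit with all libraries, 12.5% of all genes were called. The shares of all genes in the other fits are not given here, so these counts have no like share beside them.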

How the results depend on the processing

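In AD, the 0 members called became 2 (Acta2, Tagln) with all 8 libraries in 1 fit and 0 to 10 with a library left out, by limma-trend and by limma-voom alike. In ASC, all calls of the table, the 4 members among them, were lost with a library left out in limma-trend. With limma-voom and a library left out the members' count moved, and the share of all genes there is not given here. The other settings gave 3 to 5. The 5 called for the difference between AD and ASC became 3 with limma-voom, 3 with the AD_HFS pair averaged, 2 to 7 with a library left out and 0 to 5 with limma-voom and a library left out. The count of members with both AD_C libraries above both ASC_C libraries, 3, ran from 3 to 6 with a library left out. The replicate block called 6 members in AD, 4 in ASC and 5 for the difference; the labels link no replicate numbers, and deviations of same-numbered libraries correlated 0.00141 in AD and -0.123 in ASC, so the pairing was not used. Crossed ASC pairing, chosen after seeing the data, called 5 members and 3634 genes.

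Signs turned for members that were not called. With a library left out, log2 differences ran from -0.37 to 0.47 for Des and from -0.25 to 2.41 for Myh11 in AD. In ASC they ran from -0.89 to 0.14 for Des and from -0.25 to 0.00145 for Pdgfrb. Between AD and ASC they ran from -0.43 to 0.40 for Notch3, from -0.0937 to 0.94 for Des and from -0.56 to 2.10 for Myh11. Notch3 was 0.00528 there with a pseudocount of 5 and 0.0195 with upper-quartile scaling. The log2 ratio of AD_C over ASC_C ran from -0.23 to 2.71 for Myh11, from -1.20 to 0.19 for Acta2 and from -0.47 to 0.40 for Des. The cause of these shifts was not tested, except that leaving out an AD_C library leaves the AD_HFS pair as the sole measure of spread.

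Over all genes, calls in AD numbered 244, against 95 with upper-quartile scaling, 423 with all libraries in 1 fit, 661 with the block, 112 on log2 normalized counts, 150 with limma-voom, 0 with the AD_HFS pair averaged and 0 to 9830 with a library left out. In ASC they numbered 2731, and 0 with any library left out. In ASC_HFS replicate 2, Cnn1 and Lmod1 had 0 and 2 reads.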
